A study of Mus musculus with 8 samples.

Results

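Enah, Inf2, Nf2, Slk, Scrib and Ctnnd1 are 6 genes of actin assembly, cell polarity and cell adhesion that were chosen by name because their transcripts are spliced differently in mouse epidermis after the loss of ESRP1. They are 6 of 236 genes with values in the deposited splicing comparison and 6 of 21690 genes in the deposited expression table. Because the differences in exon use picked the genes, those differences are given as a description. The gene levels, which the choice did not use, were tested. Earlier results of these data were known when the genes and the tests were chosen.

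RNA was sequenced from epidermis of the back skin of mouse pups at postnatal day 5, in 4 experimental and 4 control libraries that the labels call biological replicates. Experimental pups had the genotype K5rTA tetOCre Esrp1flox/flox; Esrp2-/-, in which doxycycline turns on Cre through a keratin 5 driven transactivator, so that deletion is limited to cells with keratin 5 activity and their descendants. Control pups were Esrp1flox/flox; Esrp2-/- without those transgenes. In both groups the dam received doxycycline chow from embryonic day 17, and both groups lacked Esrp2 by genotype. The comparison is therefore of the added Esrp1 deletion on an Esrp2-null background, together with any effect of the transgenes. Nothing in the labels says whether littermates were used, so p-values measure the spread between these samples.

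ESRP1 and ESRP2 are RNA-binding proteins of epithelial cells that set the choice of alternative exons. Epithelial and mesenchymal cells make different protein forms of many genes of the cytoskeleton and of cell contacts through such exons, and the genes' total transcript level need not change with the form. Enah and Ctnnd1 are among the best known examples, with an epithelial exon in Enah and a longer mesenchymal form of p120 catenin from Ctnnd1.

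In each of the 6 genes the deposited comparison holds a cassette exon, an exon that is either kept between its neighbours or skipped. The exons of Enah, Slk and Scrib are wholly coding, so they add or remove a stretch of protein. Those of Enah and Slk are shown 5′ to 3′ on the gene's strand, from GENCODE M21 transcripts on GRCm38, with the cassette exon in capitals between 18 bases of each neighbouring exon in lower case.
Enah, exon 13 of transcript Enah-202, chr1:181911597-181911659, minus strand: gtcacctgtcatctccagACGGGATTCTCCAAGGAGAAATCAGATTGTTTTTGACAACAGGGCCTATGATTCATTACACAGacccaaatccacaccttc
Slk, exon 13 of transcript Slk-202, chr19:47627648-47627740, plus strand: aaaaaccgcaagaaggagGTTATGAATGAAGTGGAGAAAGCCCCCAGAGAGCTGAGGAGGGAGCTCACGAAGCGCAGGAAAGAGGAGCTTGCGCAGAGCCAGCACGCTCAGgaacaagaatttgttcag

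The exons of Nf2 and Inf2 hold the stop codon of the form that includes them, so keeping or skipping the exon changes the end of the protein. Both forms are shown from 18 bases before the splice junction, the included form to the end of the exon and the skipped form to its stop codon, with the stop codon in capitals.
Nf2 included, exon 16 of transcript Nf2-202, chr11:4780578-4780622, minus strand: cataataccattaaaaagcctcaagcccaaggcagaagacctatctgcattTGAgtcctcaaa
Nf2 skipped, transcript Nf2-205, next exon chr11:4768223-4768273, minus strand: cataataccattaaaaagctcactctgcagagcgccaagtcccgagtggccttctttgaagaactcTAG
Inf2 included, exon 22 of transcript Inf2-201, chr12:112612548-112612604, plus strand: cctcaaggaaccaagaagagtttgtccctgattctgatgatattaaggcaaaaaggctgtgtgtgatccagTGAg
Inf2 skipped, transcript Inf2-203, next exon chr12:112614895-112614923, plus strand: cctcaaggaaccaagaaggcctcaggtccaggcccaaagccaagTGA

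The exon of Ctnnd1 holds the start of the protein instead. Its coding part is shown from the first annotated start codon, with both start codons annotated in the exon in capitals.
Ctnnd1, exon 3 of transcript Ctnnd1-220, coding part chr2:84624270-84624464, minus strand: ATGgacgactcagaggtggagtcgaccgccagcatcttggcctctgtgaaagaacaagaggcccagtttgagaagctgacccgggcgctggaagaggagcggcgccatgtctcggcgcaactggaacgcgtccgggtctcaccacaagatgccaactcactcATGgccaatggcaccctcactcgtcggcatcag

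**Figure D1:**
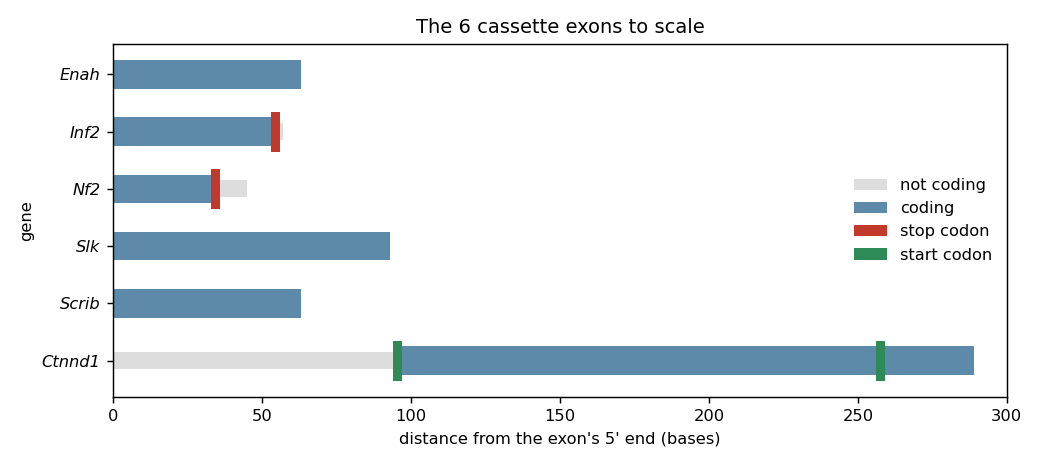
The cassette exons of the 6 genes drawn to scale, with distance from the exon's 5′ end in bases on the horizontal axis, coding sequence in blue, other sequence in grey, start codons in green and stop codons in red. Enah, Slk and Scrib exons are coding throughout, Inf2 and Nf2 exons end the reading frame, and the 289 bases of the Ctnnd1 exon hold 94 bases before the first start codon.

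Expression is given as TPM, a share of transcripts corrected for length, and the table lists a gene at 0 when it does not exceed 1 TPM. Experimental libraries had 10401 to 11077 genes above that floor and control libraries 10523 to 11640. The sequencing depth is unknown, since TPM does not keep it, and intervals for counting error are not given. Esrp1 stood at 65.0, 49.8, 75.6 and 66.5 TPM in experimental libraries, against 135.4, 130.9, 132.8 and 162.0 TPM in control libraries (log2 change -1.13, SE 0.17, limma adjusted p = 0.0112). An unannotated Esrp1 junction (chr4:11361255-11366908) had a PSI of 0.828 in experimental and 0.001 in control epidermis, so the groups matched their labels. Esrp2 was still listed, at 4.98, 3.25, 5.28 and 4.22 TPM in experimental libraries and 3.07, 0, 2.14 and 3.31 TPM in control libraries. Its change did not pass (log2 change 0.73, SE 0.25, limma adjusted p = 0.176), and why it was listed was not tested. Summed keratinocyte markers lay between 37450 and 54915 TPM in experimental libraries and between 17914 and 42217 TPM in control libraries. In control libraries 1 to 4 that sum was 41690, 42217, 28170 and 17914 TPM. Most of the summed level was Krt1 and Krt10. Krt1 lay at 15355 to 22165 TPM in experimental libraries and 6279 to 15218 TPM in control libraries. The group ranges overlapped for Krt10, Krt5, Krt14, Cdh1, Epcam and Trp63. Krt5 lay at 606 to 1047 TPM in experimental libraries and 316 to 3102 TPM in control libraries. Mitochondrially encoded genes took 18.2% and 17.5% of listed TPM in experimental libraries 2 and 4 and between 10.6% and 12.6% in the other 6 libraries.

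Because mesenchymal cells use other forms of Enah and Ctnnd1 than epithelial cells do, dermal markers were read beside the splicing values. Of 9 dermal fibroblast markers, Lum and Pdgfra were listed at 0 in all 8 libraries. The collagen genes Col1a1, Col1a2 and Col3a1 were listed at 0 in all 4 experimental libraries. These collagen genes reached at most 1.82 TPM in a control library. Dcn lay at 0 to 3.29 TPM in experimental libraries and 0 to 24.7 TPM in control libraries. Thy1 lay at 1.80 to 5.95 TPM in experimental libraries and 0 to 7.999 TPM in control libraries. The summed level of the 9 markers, most of it Vim and Sparc, was 61.2 to 104 TPM in experimental libraries and 25.8 to 181 TPM in control libraries, so the groups overlapped. Endothelial markers (Pecam1, Cdh5, Kdr and Tek) were listed at 0 throughout, and 5 of 6 muscle markers were. Melanocyte markers summed to 28.1 to 75.6 TPM in experimental libraries and 32.4 to 143 TPM in controls, and immune cell markers to 184 to 384 TPM in experimental libraries and 131 to 523 TPM in controls. Control libraries 1 to 4 had 143, 51.1, 57.3 and 32.4 TPM of melanocyte markers and 523, 512, 298 and 131 TPM of immune cell markers. The part of fibroblasts, melanocytes and immune cells in the splicing values was not tested.

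Exon use was read from the deposited MAJIQ comparison. MAJIQ counts reads at a splice site and gives each junction a PSI, the share of those reads that use it, between 0 and 1. Each exon is seen from both sides, at the junction into it (among reads that leave the upstream exon) and at the junction out of it (among reads that enter the downstream exon). The libraries of a group were combined by the authors, so each PSI is a single value per group with no spread between animals. The 6 genes held 20 distinct junctions and introns. Of these, 19 reached a posterior probability of at least 0.95 for a PSI difference of at least 0.15 in the authors' deposited table, or 95.0%, against a background of 82.3% of the 713 distinct junctions there. The 1 that did not was a retained intron of Slk. A junction listed more than once was counted by its highest probability, in the background as well. The Inf2 skipping junction and the junction into the Ctnnd1 exon passed in this way, with another entry at 0.539 and at 0. These counts rest on the values that chose the genes. The comparison lists only 236 genes, so the 82.3% does not describe all junctions of the epidermis.

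The exons of Enah, Inf2, Nf2 and Slk were used less in experimental than in control epidermis, and those of Scrib and Ctnnd1 were used more. Slk and Scrib came close to a full exchange of one form for the other, while Inf2 kept its exon in a large share of transcripts.

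**Figure D2:**
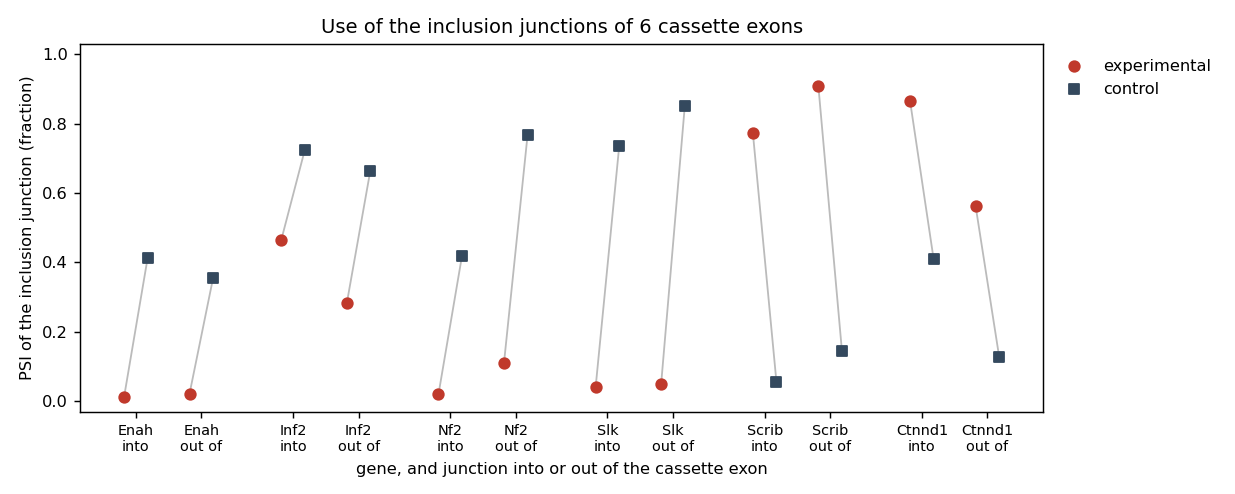
PSI of the junction into and the junction out of each cassette exon (vertical axis, fraction of reads), with experimental epidermis as red circles left of control epidermis as dark squares, joined by a grey line; each point is the authors' value over 4 libraries. Red lies below dark for Enah, Inf2, Nf2 and Slk and above it for Scrib and Ctnnd1, with the widest gaps in Slk and Scrib.

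Enah (ENSMUSG00000022995.16) encodes Mena, a protein of the Ena/VASP family that lengthens actin filaments at the leading edge and at cell contacts. Its 63-base exon, which adds 21 codons, is the one known from the epithelial form of Mena. The junction into the exon had a PSI of 0.012 in experimental epidermis and 0.413 in control epidermis, and the junction out of it 0.022 in experimental and 0.356 in control epidermis. The exon was thus nearly unused in experimental epidermis, and in controls it was in a minority of transcripts. The skipping junction (chr1:181908376-181913307) took 0.988 of reads leaving the upstream exon in experimental epidermis and 0.587 in controls. Among reads entering the downstream exon it took 0.744 in experimental and 0.363 in control epidermis. At that downstream site 0.234 of reads in experimental and 0.281 in control epidermis used other junctions that the comparison does not list. GENCODE M21 has 1 transcript with the exon and 8 with the skipping junction.

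Inf2 (ENSMUSG00000037679.9) encodes inverted formin 2, which both nucleates and severs actin filaments and exists in forms with different ends. A form with a CAAX box, a lipid attachment signal whose first residue is cysteine, sits on the endoplasmic reticulum, and a form without it is found elsewhere in the cell. In the sequences above, the included form has TGT, a cysteine codon, as the fourth codon before its stop, and the skipped form has CCC there, which is not one. The junction into the exon had a PSI of 0.465 in experimental and 0.725 in control epidermis, and the junction out of it 0.282 in experimental and 0.665 in control epidermis. The exon with the cysteine codon was therefore used less in experimental epidermis. Skipping straight to the last exon took 0.173 of reads leaving the upstream exon in experimental epidermis and 0.002 in controls. That difference had a probability of 0.539 in the authors' deposited table. At the last exon the same junction took 0.240 in experimental and 0.004 in control epidermis, and there the probability was 0.991. Skipping was thus at or near 0 in controls and present in experimental epidermis. A further 0.362 of reads leaving the upstream exon in experimental epidermis and 0.273 in controls followed paths that the comparison does not list. At the last exon such unlisted paths took 0.478 of reads in experimental epidermis and 0.331 in controls. The lower use of the exon there was thus not only an exchange for the skipping junction.

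The Inf2 exon also differed in how it ended. Reads could run on into the intron behind it, over a stretch (chr12:112612605-112613570) that the comparison lists as an unannotated intron. That stretch covers only the first part of the 2290 bases before the last exon. Running on had a PSI of 0.581 in experimental epidermis and 0.322 in controls. Splicing from the exon to the last exon had a PSI of 0.417 in experimental and 0.667 in control epidermis. Both differences were close to the threshold, with probabilities of 0.962 and 0.956 in the authors' deposited table. The stop codon lies upstream of this intron, so the coding sequence of the included form is the same whichever way it ends.

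Nf2 (ENSMUSG00000009073.16) encodes merlin, which links membrane proteins to cortical actin and acts upstream of the Hippo pathway in growth control. Its 45-base exon 16 gives an end of 11 codons after the junction, and skipping it gives another end of 16 codons. The junction into exon 16 had a PSI of 0.020 in experimental and 0.420 in control epidermis. The junction out of it had a PSI of 0.110 in experimental and 0.767 in control epidermis. Viewed from the last exon, the form with exon 16 was the main one in controls and a minor one in experimental epidermis. The skipping junction (chr11:4768273-4782187) took 0.863 of reads leaving the upstream exon in experimental epidermis and 0.509 in controls, and 0.703 of reads entering the last exon in experimental epidermis and 0.134 in controls. The views from the 2 sides gave different levels of skipping in controls, where they differ most among the 6 genes. Both forms are annotated, with 3 transcripts that include the exon and 2 with the skipping junction.

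Slk (ENSMUSG00000025060.15) encodes a kinase of the STE20 family that phosphorylates ezrin, radixin and moesin, the proteins that tie the membrane to actin. Its 93-base exon adds 31 codons, and the rest of the coding sequence is shared by the annotated forms of 1233 and 1202 codons. The junction into the exon had a PSI of 0.042 in experimental and 0.737 in control epidermis, and the junction out of it 0.051 in experimental and 0.850 in control epidermis. The skipping junction (chr19:47625484-47635469) took 0.939 of reads leaving the upstream exon in experimental epidermis and 0.075 in controls. In controls most Slk reads included the exon, and in experimental epidermis few did. A retained intron upstream of the exon (chr19:47625855-47627647) had a PSI of 0.019 in experimental and 0.189 in control epidermis, with a probability of 0.646 in the authors' deposited table.

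Scrib (ENSMUSG00000022568.17) encodes scribble, a scaffold of the basolateral membrane that acts with discs large and lethal giant larvae proteins in cell polarity. Here the exon was gained. The junction into its 63-base exon 16 had a PSI of 0.773 in experimental and 0.055 in control epidermis, and the junction out of it 0.908 in experimental and 0.144 in control epidermis. The skipping junction (chr15:76061223-76062670) took 0.227 of reads leaving the upstream exon in experimental epidermis and 0.945 in controls, and 0.092 of reads entering the downstream exon in experimental epidermis and 0.856 in controls. The control form thus lacked the 21 codons and the experimental form had them. All 3 annotated transcripts with the exon are protein coding, whereas the 1 with the skipping junction is a processed transcript with no coding sequence, so the form used in controls is the less well annotated one.

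Ctnnd1 (ENSMUSG00000034101.14) encodes p120 catenin, which binds the cytoplasmic tail of cadherins and holds them at the surface. Its forms differ in the start codon they use. In GENCODE M21 all 10 transcripts with the whole exon start at the first codon in it, and all 5 coding transcripts with the skipping junction start at codon 102 counted from there, in a later exon. The second start codon in the exon is codon 55 and is used by 7 transcripts that have neither the whole exon nor the skipping junction. The junction into the exon had a PSI of 0.865 in experimental and 0.409 in control epidermis, and the junction out of it 0.563 in experimental and 0.128 in control epidermis. The form that can start at the first codon was therefore used more in experimental epidermis. The skipping junction, which spans 28323 bases (chr2:84622082-84650406), took 0.120 of reads leaving the upstream exon in experimental epidermis and 0.580 in controls. Among reads entering the downstream exon it took 0.324 in experimental epidermis and 0.771 in controls. The share of reads entering the exon from that upstream exon was similar in the groups, at 0.857 in experimental epidermis and 0.832 in controls, with a probability of 0 in the authors' deposited table for a difference of at least 0.15.

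Set among the cassette exons that the comparison lists, which are not all those of the epidermis, the 6 exons covered both directions and a wide range of sizes. Of 71 cassette exons listed, 49 had both inclusion junctions past the probability threshold (69.0%), and these included all 6, as the choice of genes implies. Averaged over the 2 junctions, the largest difference of the 6 was that of Slk, rank 3 of 71 by size, followed by Scrib at rank 4, Nf2 at 11, Ctnnd1 at 19, Enah at 28 and Inf2 at 40. Inclusion was lower in experimental epidermis for 4 and higher for 2 of the 6, and lower for 32 and higher for 11 of the other 43 exons past the threshold. Both sets thus held more exons with lower than with higher inclusion.

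**Figure D3:**
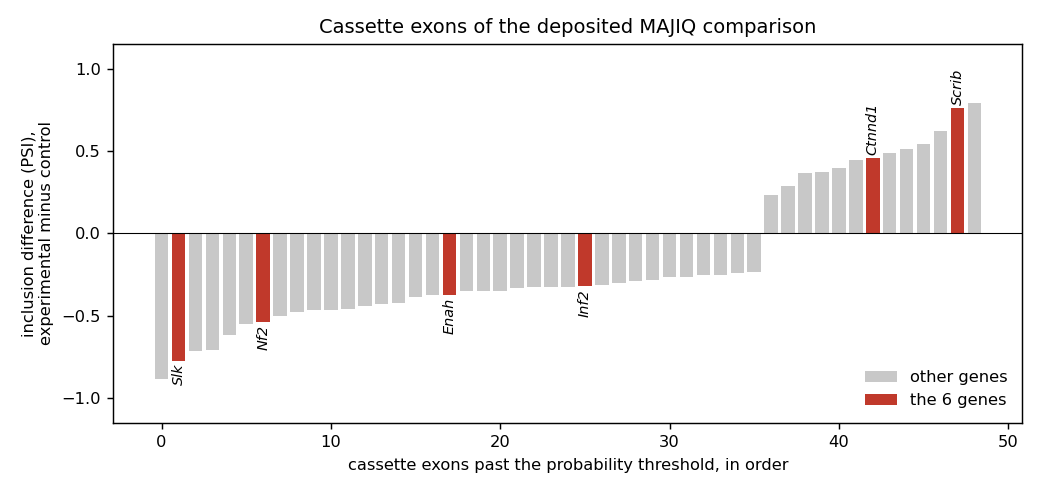
Difference in exon inclusion (PSI, experimental minus control, mean of the 2 inclusion junctions) for the 49 cassette exons past the probability threshold, in order of size, with the 6 genes in red and other genes in grey. Slk, Nf2, Enah and Inf2 lie below 0, and Ctnnd1 and Scrib lie above 0.

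Features of the exons that the choice did not use were mixed. The lengths of 5 of the 6 (83.3%) were multiples of 3, as were those of 35 of the other 43 cassettes past the threshold (81.4%) and 40.4% of 180109 internal exons of protein-coding transcripts in GENCODE M21. The 6 were therefore like the other changed cassettes in this respect. Ctnnd1 was the exception, and its exon carries the start codon. No in-frame stop codon was found in the exons of Enah, Slk and Scrib, so keeping or skipping them leaves the reading frame intact. Median length was 63 bases in the 6 and 83 bases in the other changed cassettes. GC content was 41.3% in Enah, 42.1% in Inf2, 48.9% in Nf2, 55.6% in Scrib, 58.1% in Slk and 59.2% in Ctnnd1, which shows no shared base composition. ESRP proteins are known to bind GGU-rich RNA, so the letters GGTGG were searched on the transcript strand inside each exon. They occurred once, in the Ctnnd1 exon, and 34.9% of internal exons within 29 bases of its length also hold them. They were absent from the other 5 exons, where the share among exons of like length was between 4.35% and 11.4%. Introns were not searched.

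The level of each gene was then compared between groups. In 1 of the 6 genes, Inf2, the level fell in experimental epidermis. Of 10682 genes tested in limma, 2.46% passed an adjusted p of 0.05, 1.54% as lower and 0.917% as higher. That is 98 higher and 165 lower genes; with each library centred on its median it was 283 higher and 102 lower, and without experimental libraries 2 and 4 it was 14 higher and 1 lower. The median log2 change over all of them was -0.18, which is part of every change given here. Changes are on the log2(TPM + 1) scale, which understates those of low genes. In bulk tissue, fewer cells of a type and less RNA per cell cannot be told apart.

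Inf2 stood at 8.83, 5.83, 9.01 and 9.90 TPM in the 4 experimental libraries, against 19.2, 23.0, 22.7 and 27.5 TPM in the 4 control libraries. Every experimental library lay below every control. The means were 8.39 ± 1.77 TPM in experimental and 23.1 ± 3.41 TPM in control epidermis (SD, n = 4 each), 2.75-fold lower. In limma this was -1.37 on the log2 scale (SE 0.20, adjusted p = 0.0077). The two-sided exact permutation p was 0.0286, and 4 libraries against 4 can give none smaller. Nf2 and Slk had the same permutation p, so it does not set Inf2 apart from them. Enah and Scrib had a permutation p of 0.171, and Ctnnd1 of 0.314. With each library centred on its median the change of Inf2 was -1.16 (limma adjusted p = 0.0141). Without experimental libraries 2 and 4, which had the high mitochondrial share, it was -1.27 and did not pass (limma adjusted p = 0.0837). The authors' deposited table lists Inf2 with a log2 fold change of -1.33 (SE 0.26, adjusted p = 2.48e-05). Inf2 was thus the only one of the 6 whose level also passed the adjusted p threshold in limma.

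Nf2 stood at 11.1, 8.54, 10.4 and 13.1 TPM in experimental libraries, against 19.9, 17.1, 14.7 and 13.1 TPM in control libraries. The groups met there: the highest experimental library (13.10) lay just below the lowest control (13.12). The log2 change was -0.54 (SE 0.19) and did not pass (limma adjusted p = 0.178). Without control libraries 3 and 4 it was -0.74 and passed (limma adjusted p = 0.0300). The authors' deposited table lists Nf2 with a log2 fold change of -0.39 (SE 0.11, adjusted p = 0.00701). The other 4 genes do not appear in that table, whose 748 rows all have a fold change below 0 and an adjusted p under 0.05.

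Slk stood at 23.1, 15.3, 24.4 and 28.4 TPM in experimental libraries, against 32.8, 30.6, 32.0 and 41.5 TPM in control libraries. The groups did not overlap, and the log2 change of -0.59 (SE 0.21) did not pass (limma adjusted p = 0.181). Inf2, Nf2 and Slk were the 3 genes without overlap, where the background was 12.6% of genes tested.

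Enah was the only one of the 6 with a higher mean in experimental epidermis. It stood at 16.1, 12.3, 17.6 and 19.5 TPM in experimental libraries, against 15.8, 15.7, 11.8 and 6.22 TPM in control libraries, with overlap (log2 change 0.44, SE 0.28, limma adjusted p = 0.455). Control library 4 was the lowest of all 8, and without it the change was 0.17. Without control libraries 3 and 4 the change was 0.04, so its size rests on those libraries.

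Scrib stood at 10.0, 8.69, 12.4 and 15.6 TPM in experimental libraries, against 15.03, 14.7, 16.6 and 12.8 TPM in control libraries (log2 change -0.34, SE 0.20, limma adjusted p = 0.411). Ctnnd1 was the most abundant of the 6, at 43.6, 29.8, 49.2 and 49.4 TPM in experimental libraries, against 58.5, 54.7, 45.0 and 42.8 TPM in control libraries (log2 change -0.24, SE 0.20, limma adjusted p = 0.575). For both genes the groups overlapped. Centred values brought the change of Ctnnd1 to -0.02 and that of Scrib to -0.13. Without experimental library 2 the change of Ctnnd1 was -0.07 and that of Scrib -0.22. Scrib and Ctnnd1, whose exons were gained, thus showed no level change past the test, and neither did Enah and Slk, whose exons were lost.

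**Figure D4:**
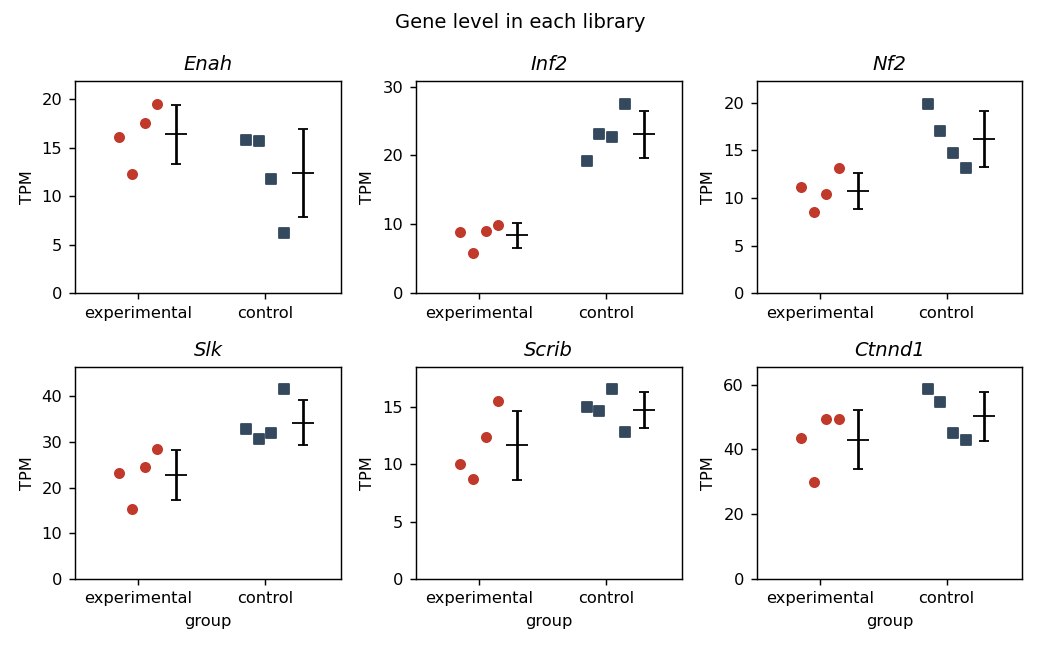
Level of each of the 6 genes in TPM (vertical axis) in 4 experimental libraries (red circles) and 4 control libraries (dark squares), with the group mean and SD in black. Inf2 separates widely, at 5.83 to 9.90 TPM in experimental and 19.2 to 27.5 TPM in control libraries, while Enah, Scrib and Ctnnd1 overlap.

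The order of mean levels was the same in the 2 groups for the most abundant pair, Ctnnd1 at 43.0 ± 9.22 TPM in experimental and 50.2 ± 7.56 TPM in control epidermis, and Slk at 22.8 ± 5.51 TPM in experimental and 34.2 ± 4.95 TPM in control epidermis. Below them, experimental epidermis had Enah (16.4 ± 3.07 TPM), Scrib (11.7 ± 3.01 TPM), Nf2 (10.8 ± 1.89 TPM) and Inf2 (8.39 ± 1.77 TPM). Control epidermis had Inf2 (23.1 ± 3.41 TPM), Nf2 (16.2 ± 2.95 TPM), Scrib (14.8 ± 1.55 TPM) and Enah (12.4 ± 4.51 TPM; SD, n = 4 each). Inf2 thus stood at rank 3 in controls and last in experimental epidermis. Scrib and Nf2 lay within an SD of each other in both groups.

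The levels of related genes were read from 6 lists of actin, polarity and adhesion genes, of which 4 of 98 tested genes fell and 0 rose in limma, where over all genes tested 1.54% were called lower and 0.917% higher. An unadjusted p under 0.05 was found for 21 of the 98, against 16.9% of all genes tested. The lists hold the 6 genes themselves, so Inf2 is 1 of the 4, and Inf2, Nf2 and Slk are 3 of the 21. Without experimental libraries 2 and 4, none of the 98 passed. In the list of Ena/VASP proteins, formins and profilins, 3 of 16 tested genes fell: Inf2, Fmnl2 and Fhod3. Fhod3, a formin best known from muscle sarcomeres, stood at 3.32 ± 1.597 TPM in experimental and 13.4 ± 7.46 TPM in control epidermis (log2 change -1.70, SE 0.38, limma adjusted p = 0.0452). Fmnl2, a formin of lamellipodia, stood at 1.48, 0, 1.115 and 0 TPM in experimental libraries and at 3.10, 2.30, 2.73 and 4.14 TPM in control libraries (log2 change -0.91, SE 0.17, limma adjusted p = 0.0257). With centred values Inf2 was the only gene of this list that passed. Leaving out experimental library 2, 3 or 4, or control library 3, also ended the calls of Fhod3 and Fmnl2, and leaving out experimental library 1 or control library 2 ended that of Fhod3. The median log2 change of the list was -0.30, where that of all genes tested was -0.18, and it was -0.51 without control library 4.

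Among 17 tested genes of the Arp2/3 complex and its activator WAVE, which build branched actin, Arpc5l alone fell. This Arp2/3 subunit gene stood at 38.8 ± 2.43 TPM in experimental and 69.1 ± 12.4 TPM in control epidermis. Its change was -0.80 (log2, SE 0.17, limma adjusted p = 0.0384). It did not pass with quantile-normalized or centred values, and leaving out any 1 library but control library 4 also ended the call. With centred values another gene of this list rose instead. The median of this list was -0.08, and its direction was not stable: it was 0.02 without experimental library 2, 0.14 with centred values and -0.18 without control library 4.

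No gene passed in the other 4 lists. In the polarity list (21 tested, median log2 change -0.20, 5 with an unadjusted p under 0.05), the planar polarity cadherin gene Celsr1 had 9.90 ± 3.32 TPM in experimental and 17.98 ± 3.95 TPM in control epidermis (limma adjusted p = 0.115). Dlg5, a discs large relative, had 4.93 ± 1.19 TPM in experimental and 9.14 ± 2.96 TPM in control epidermis (limma adjusted p = 0.133). In the cadherin and catenin list (14 tested, median -0.20, 2 with an unadjusted p under 0.05), the beta-catenin gene Ctnnb1 had 76.2 ± 20.99 TPM in experimental and 116.8 ± 20.2 TPM in control epidermis (limma adjusted p = 0.194), and Pkp4, a p120 catenin relative, 1.99 ± 0.355 TPM in experimental and 3.68 ± 1.71 TPM in control epidermis (limma adjusted p = 0.282). No partner gene of p120 catenin in this list thus passed with all 8 libraries. Pkp4 passed without control libraries 3 and 4 (log2 change -1.02, limma adjusted p = 0.0090). It did not without control libraries 1 and 2 (-0.15, limma adjusted p = 0.696). Celsr1 likewise passed without control libraries 3 and 4 (-1.03, limma adjusted p = 0.0324) and not without control libraries 1 and 2 (-0.62, limma adjusted p = 0.247).

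In the merlin and Hippo list (23 tested, median -0.28, 7 with an unadjusted p under 0.05, Nf2 among them), Ccn2, a target gene of the Hippo effectors, had 2.14 ± 1.09 TPM in experimental and 4.37 ± 0.943 TPM in control epidermis (limma adjusted p = 0.119). In the list of SLK-related kinases and their ezrin, radixin and moesin substrates (7 tested, median -0.13, 1 with an unadjusted p under 0.05), the moesin gene Msn had 10.4 ± 1.19 TPM in experimental and 14.1 ± 7.76 TPM in control epidermis (limma adjusted p = 0.762; SD, n = 4 each). The gene of this list with an unadjusted p under 0.05 was Slk itself, while Msn had a limma unadjusted p of 0.527. Msn had a log2 change of -0.24, which was -0.90 and passed without control libraries 3 and 4 (limma adjusted p = 0.0128) and was 0.42 without control libraries 1 and 2. The median of this list turned to 0.03 without experimental library 2, 0.01 without control library 1 and 0.09 with centred values. Centring also brought the medians of the polarity and cadherin lists to 0.02. Leaving out experimental library 4 moved that of the polarity list to -0.33, and leaving out experimental library 2 moved that of the cadherin list to -0.11. Of the list genes other than the 6, Fmn1, Abi2 and Tead1 also appeared in the splicing comparison past the probability threshold.

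**Figure D5:**
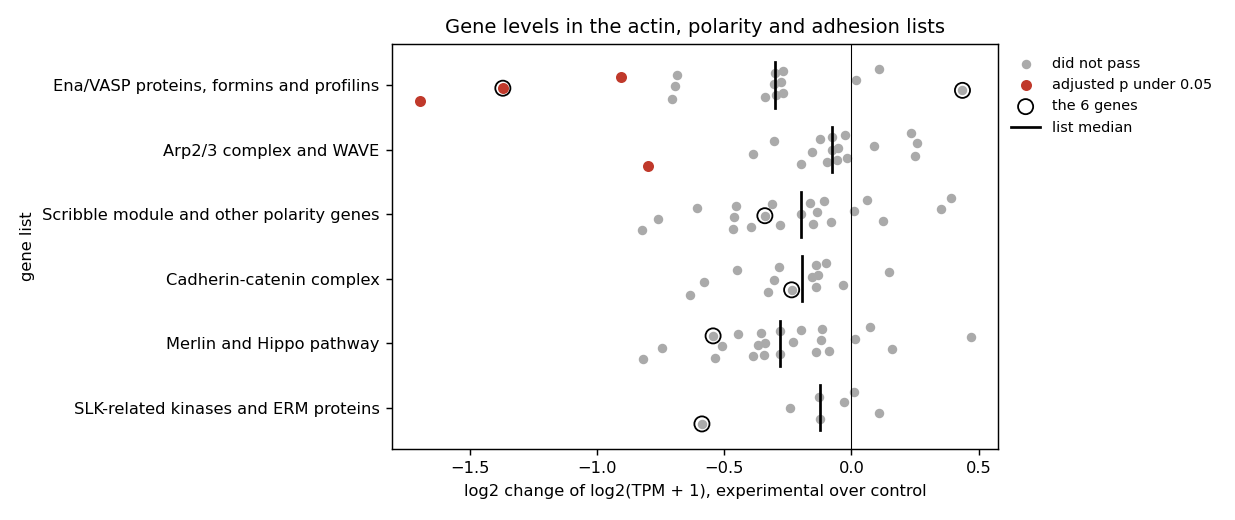
Log2 change of level, experimental over control (horizontal axis), for each tested gene of 6 gene lists (rows); red points passed limma's adjusted p of 0.05, grey points did not, black rings mark the 6 genes and black bars the list medians. The 4 red points, Fhod3, Inf2, Fmnl2 and Arpc5l, all lie below 0.

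Among 7448 genes with a mean of at least 5 TPM, those whose levels followed each member most closely over the 8 libraries were found by Pearson correlation of log2(TPM + 1). The points share libraries and the group difference, so the values describe a likeness of pattern. Inf2 was closest to S100a14 (r = 0.997) and Trabd (r = 0.993), whose means were also lower in experimental epidermis. S100a14 had 995.1 ± 81.0 TPM in experimental and 1518 ± 103 TPM in control epidermis. Nf2 was closest to Ciapin1 (r = 0.994) and Chtf8 (r = 0.9903), Slk to Mill1 (r = 0.988) and Arfgef2 (r = 0.987), and Scrib to B3galnt2 (r = 0.976) and Taz (r = 0.975). Taz here is a separate gene from Wwtr1 of the merlin and Hippo list, whose product is also called TAZ. Ctnnd1 was closest to Man2b1 and Zfp746 (r of 0.99 for both), and Enah to Pla2g4a (r = 0.987) and Ppp1r14c (r = 0.987). No gene of the 6 was among the closest 2 of another. Within the 6, Inf2 and Slk were the most alike pair (r = 0.905), and Enah stood apart, with r between -0.493 and 0.390 to the other 5.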

How the data were processed

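RNA of 8 epidermis libraries was sequenced by the authors from NEBNext Ultra libraries, per the labels' protocols. Builds GRCm38 and mm10 are listed in the submitters' processing notes together with the tools DESeq, Salmon 0.14.0, SAMtools 1.9 and STAR, with no role for each. Expression was deposited as log2 TPM per gene. Against the deposited mean normalized counts per kilobase, a reading as log2 TPM gave ratios of 0.866 to 1 over 392 genes in bins of level and a reading as log2(TPM + 1) 0.914 to 1.43, so a log2 TPM reading, in which 0 stands for 1 TPM or less, was used in place of the planned one. The deposited MAJIQ table gives PSI as a fraction per group, a difference score (experimental minus control) and a probability, per the file headers. The authors' deposited expression comparison gives a mean count signal, log2 fold changes, Wald scores and p-values, per the file headers.

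Columns carry a group but no replicate number of the labels, so libraries 1 to 4 are names in table order. Values under 1 TPM were raised to 1 and log2(TPM + 1) was taken. limma 3.58.1 (R 4.3.3) was fitted with group alone, a variance trend and Benjamini-Hochberg adjustment, over genes averaging 1 TPM or more. The deposited expression values are named as not batch corrected. The labels give no batch, so none was fitted. The script was tested on simulated data. Repeated MAJIQ entries were counted once per gene and coordinate, by the entry of highest probability, and 100 of 1203 entries had no value. Exons and sequences come from GENCODE M21 (GRCm38), which gives Slk another version of the identifier than the files do. The 6 genes, the gene lists and the tests were chosen with earlier results of these data known. A further gene list and an exon sequence are not reported here. Named beside the 6 were list genes past the threshold, otherwise the 2 of lowest p, and the 2 genes most correlated with each member. Permutation tests, counts and figures used Python 3.11.15, pandas 2.3.3, numpy 2.4.6 and matplotlib 3.10.9. Alternatives were other pseudocounts, filters, scalings and thresholds, no variance trend, and leaving out libraries; leaving out experimental libraries 2 and 4 was chosen after seeing the data.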

Additional observations from a re-analysis of the deposited data

Results flagged for a closer look

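Among 44 groups of 4 libraries examined, 3 had a library whose gap to its neighbour took most of the range of the group (Dixon's test at 95%); chance gives about 1 in 20. Esrp1 reached 162 TPM in control library 4, where the next control had 135 TPM. Dlg5 reached 13.5 TPM in the same library, where the next had 8.20 TPM. Summed muscle markers were at 1.77 TPM in control library 1 and listed at 0 in the other 3 controls. With the other 3 at 0, any value above 0 would be flagged. Groups at 0 in all 4 libraries, as for endothelial markers, are among the 44 and could not be flagged.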

How the results depend on the processing

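Each of the 6 genes kept the direction of its level change under all 18 alternatives. Inf2 passed in 17 of them (log2 change -1.45 to -1.22 when 1 library was left out) and not without experimental libraries 2 and 4. Nf2 passed only without control libraries 3 and 4, and Enah, Slk, Scrib and Ctnnd1 passed in none. The number of genes past the threshold, 263, became 2544 without control libraries 3 and 4, 498 without control libraries 1 and 2, 15 without experimental libraries 2 and 4, and 85 to 581 when 1 library was left out, lowest without experimental library 3 and highest without control library 4. Median centring gave 283 higher and 102 lower genes, and quantile normalization 269 higher and 117 lower, against 98 higher and 165 lower without them. The change of Msn was 0.42 without control libraries 1 and 2, -0.90 and past the threshold without control libraries 3 and 4, and between -0.62 and 0.034 when 1 library was left out; the cause was not tested. Over the 6 lists, 19 genes passed without control libraries 3 and 4, all lower, and 1 to 5 when 1 library was left out. Of the junctions of the 6 genes, 19 passed at a probability of 0.9, 18 at 0.99, 19 with a PSI difference of at least 0.2, and 36 when every entry was counted, since entries of a junction repeat. Motif windows in introns were not run. No paired analysis was possible because the columns of the expression table carry no replicate number that matches the labels. The unknown depth and PSI values combined over libraries limit the precision, and no spread between animals can be given for exon use.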
